A study of Mus musculus with 2 samples.

Results

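Connexins form gap junctions, and this account describes 7 connexin genes and 2 pannexin genes (*Gja1*, *Gja4*, *Gjb1*, *Gjb2*, *Gjb6*, *Gjc1*, *Gjc3*, *Panx1* and *Panx2*) of dorsal root ganglia (DRGs) cell by cell. These 9 genes were taken by symbol from the 32285 genes of the count tables, which hold 23 connexin and pannexin genes in all. The experiment has 1 condition with 2 samples, replicates 1 and 2, of single cells sorted as live from L4 and L5 DRGs of naive C57BL/6 female mice of 3 months, so that every comparison is between cells of the same ganglia. The samples are described as biological replicates. The number of animals behind each is not given in the sources used here, and p-values measure the spread between these 2 samples.

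A gap junction joins the cytoplasm of neighbouring cells through a pair of docked hemichannels, each built of connexin subunits, and passes ions and small molecules. Satellite glial cells (SGCs) wrap the cell bodies of sensory neurons and are coupled to each other by gap junctions. Pannexins have a similar fold but mostly act as single-membrane channels, and pannexin channels release ATP. Which connexins 1 cell holds matters because subunits of different genes can mix in 1 channel.

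The libraries held 119101743 and 128668771 UMIs, and 8769 and 8737 barcodes were called as cells with over 300 genes. After removal of doublet and low-quality clusters 7924 and 7935 cells entered 21 clusters that were compared. Of the called barcodes, 134 occurred in both libraries. They were concentrated in neurons: 59 of 116 cells of a deep neuron cluster and 162 of 427 cells of a shallow one carried a shared barcode, and 59 barcodes were deep in one library and shallow in the other. The shallow neuron cluster was left out of the comparisons, and neuron results are given with and without shared barcodes. Across the summed counts of all cells the libraries differed beyond sampling noise.

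Cell types were named from marker genes among the leading genes of each cluster. SGCs (3564 and 3373 cells) formed 5 clusters with the markers *Bcan*, *Ptprz1* and *Fbln5* among their leading genes. Clusters 1, 5 and 8 also had the Notch target *Hes5* and *Acsbg1* among their leading genes and are called the *Hes5* state, and clusters 3 and 4 had *Lgr5* and *Kcnh8* and are called the *Lgr5* state. Another glial cluster (783 and 741 cells) was led by *Pou3f1* and reached too few markers of any class for a name. It is called *Pou3f1* glia. Myelinating Schwann cells (MSCs) formed clusters 0 and 7, with *Prx*, *Ncmap* and *Drp2*, and non-myelinating Schwann cells (NMSCs) formed 1 cluster with *Scn7a* and *Cadm2*. Mural cells were split into pericyte-like cells with *Kcnj8* and *Abcc9*, smooth muscle-like cells, cells led by *Casq2*, and a small cluster led by *Tnc*. The smooth muscle-like cells were led by *Pln* and *Ryr2* and had the highest *Acta2* and *Tagln*. *Cspg4*, a further pericyte marker, went the other way. It was at 127 CPM in the pericyte-like, 205 in the *Casq2* and 206 in the smooth muscle-like cluster, pooled and without normalization. *Cnn1*, a further smooth muscle marker, was at 166 CPM in the smooth muscle-like cluster and higher, at 349 CPM, in the *Tnc* cluster, on the same scale. Of the *Tnc* cells (26 in each sample) 30.8% had a high doublet score. The leading genes of the *Tnc* cluster included the fibroblast genes *Mfap5*, *Apod*, *Dcn* and *Col1a1*. Endothelial cells were split into a cluster with *Car4* that was led by hemoglobin genes, an arterial-like cluster, and a small cluster (24 and 20 cells) with *Selp*, *Ccl21a* and *Mmrn1*, of which the last 2 are genes of lymphatic endothelium. The arterial-like cluster is called so for the highest *Sema3g* among the endothelial clusters, at 141 CPM, pooled over both samples and without normalization. *Bmx* and *Hey1* were at 338 and 138 CPM, and the arterial markers *Efnb2* and *Gkn3* at 152 and 6.47 CPM. None of these was among its 10 leading genes, which began with *Nebl*, *Slco1c1* and *Foxq1* and included *Slc2a1*. Fibroblasts formed clusters led by *Apod*, *Mgp* and *Igfbp6*. The sensory neuron genes *Prph*, *Calca* and *Tac1* led the neuron clusters. The connexin, pannexin and partner genes were kept out of the genes used for clustering, but genes that vary with them were not, and the same cells served for clustering and comparison.

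In GRCm38 with GENCODE M21 the 9 genes lie on 8 chromosomes. *Gja1* spans chr10:56377330-56402513 on the plus strand, *Gja4* chr4:127311421-127314039 on the minus strand and *Gjb1* chrX:101376378-101385629 on the plus strand. *Gjc1* lies at chr11:102799579-102819700 and *Gjc3* at chr5:137953461-137963098, both on the minus strand. *Panx1* spans chr9:15002128-15045478 on the minus strand. *Panx2* spans chr15:89059734-89073567 on the plus strand and overlaps *1810021B22Rik* on the opposite strand, and none of the other 8 overlaps a listed gene. *Gjb2* (chr14:57098600-57104702) and *Gjb6* (chr14:57123303-57133611) are neighbours on the minus strand with 18600 bases between them.

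RefSeq promoters (GRCm38.p6) were held for 7 of the 9 genes, all but *Gjc1* and *Panx2*. The 250 bases before the start are shown for *Gja1* and *Gjc3*, whose levels ran in opposite directions between the states of SGCs described next, and for the neighbours *Gjb2* and *Gjb6*, which were highest in the same fibroblast cluster. They were searched on both strands for the AP-1 motif TGANTCA, the SOX core ACAANG and the GC box GGGCGG, and matches are in capitals. The *Gja1* window is chr10:56377050-56377299 on the plus strand. The *Gjc3* window is chr5:137963099-137963348, that of *Gjb2* chr14:57104703-57104952 and that of *Gjb6* chr14:57133612-57133861, all on the minus strand.
Gja1: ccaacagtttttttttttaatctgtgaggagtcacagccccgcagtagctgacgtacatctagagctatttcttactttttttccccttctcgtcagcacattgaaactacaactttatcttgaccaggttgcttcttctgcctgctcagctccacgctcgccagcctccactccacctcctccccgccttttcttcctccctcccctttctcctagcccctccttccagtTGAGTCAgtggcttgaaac
Gjc3: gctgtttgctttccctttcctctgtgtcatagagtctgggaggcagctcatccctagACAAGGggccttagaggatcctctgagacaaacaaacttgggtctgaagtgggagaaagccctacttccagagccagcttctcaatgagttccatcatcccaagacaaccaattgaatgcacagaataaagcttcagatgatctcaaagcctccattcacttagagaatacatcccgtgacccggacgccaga
Gjb2: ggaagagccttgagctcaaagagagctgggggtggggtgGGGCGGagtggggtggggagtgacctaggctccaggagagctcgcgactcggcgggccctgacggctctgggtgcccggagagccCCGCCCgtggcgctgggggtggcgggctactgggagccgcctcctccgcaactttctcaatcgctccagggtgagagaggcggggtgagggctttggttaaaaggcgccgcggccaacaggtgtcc
Gjb6: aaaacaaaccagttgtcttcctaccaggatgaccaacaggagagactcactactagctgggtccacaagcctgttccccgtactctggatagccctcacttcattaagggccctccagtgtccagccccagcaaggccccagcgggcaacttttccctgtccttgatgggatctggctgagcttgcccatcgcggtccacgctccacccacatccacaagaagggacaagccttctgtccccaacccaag
The *Gja1* window held 1 AP-1 match, a motif found in 6.75% of 32851 promoter windows of this length. The *Gjc3* window held 1 SOX core, which 36.3% of windows held. In the *Gjb2* window there were 2 GC boxes, 1 on each strand, and 32.7% of windows held at least 1, while the *Gjb6* window held none of the 3 motifs. TGANTCA reads the same on both strands. A match is a description of letters and not a bound site.

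The first question was how connexins differ between states of SGCs. *Gja1*, the main connexin of astrocytes and of SGCs, and *Gjc3*, a connexin of myelinating and other peripheral glia, ran in opposite directions between the *Hes5* and the *Lgr5* state. *Gja1* measured 214 and 205 CPM (UMI counts scaled to a common library total with TMM factors, mean of the clusters, replicates 1 and 2) in the *Hes5* state against 136 and 132 in the *Lgr5* state, a log2 difference of 0.63 ± 0.08 (SE). *Gjc3* measured 132 and 122 CPM in the *Hes5* state against 253 and 230 in the *Lgr5* state, a log2 difference of -0.98 ± 0.07. Both differences passed edgeR's quasi-likelihood test on counts summed per sample and cluster, with Benjamini-Hochberg adjusted p of 5.2e-08 for *Gja1* and 7.15e-13 for *Gjc3*. The 2 samples of a state did not overlap with those of the other for either gene.

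In all, 5 of the 9 genes passed the test between the states, where 21.9% of the 16894 genes tested passed it in either direction. *Gjb1*, the connexin of myelinating Schwann cells, was at 2.68 and 2.10 CPM in the *Hes5* state and at 8.97 and 7.39 CPM in the *Lgr5* state (log2 difference -1.89 ± 0.21, edgeR adjusted p 5.81e-08). *Gjb2*, a connexin of the meninges and inner ear, was the other gene higher in the *Hes5* state, with 5.19 and 5.63 against 2.70 and 2.73 CPM (0.98 ± 0.23, edgeR adjusted p 0.00147). *Gjc1*, a connexin of smooth muscle and of the cardiac conduction system, was lower in the *Hes5* state by a log2 difference of -0.76 ± 0.19 (edgeR adjusted p 0.00267), at levels of 1.95 to 5.58 CPM over the 5 clusters. *Panx1* did not pass the test, with a log2 difference of -0.04 ± 0.15 (edgeR adjusted p 0.913). *Panx2*, *Gja4* and *Gjb6* stayed under 0.5 CPM in every SGC cluster. The *Hes5* cells were deeper, with a median of 17263.5 and 18289 UMIs per cell against 11718 and 12298 in the *Lgr5* state, and CPM scales this out of the levels.

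The clusters formed an order rather than 2 blocks. Cluster 1 had 239 and 223 CPM of *Gja1* and 83.5 and 76.9 CPM of *Gjc3*, so that *Gjc3* was at 0.350 and 0.345 of the level of *Gja1*. UMIs were counted from the 3′ end of transcripts, and the ratio takes no length correction. Whether intronic reads were counted is not given, so the ratio is compared between clusters and not taken as the relative abundance of the 2 genes. In cluster 5 the ratio was 0.787 and 0.825, and in cluster 8 it was 0.765 and 0.667, close to it though without overlap. It was 1.52 and 1.46 in cluster 3 and 2.24 and 2.06 in cluster 4. The ratio was higher still in *Pou3f1* glia, with 90.6 and 82.6 CPM of *Gja1*, 387 and 348 CPM of *Gjc3* (4.28 and 4.22). Each SGC cluster was also set against the mean of the other SGC clusters. Cluster 1 had 5 of 9 genes past the test (18.3% of all genes), with *Gja1* (0.51) and *Gjb2* (0.68) higher and *Gjc3* (-1.24), *Gjb1* (-1.68) and *Gjc1* (-0.77) lower. The call on *Gjb2* was lost without TMM factors and without cells of high doublet score. Cluster 8 had 2 of 9 genes past it (21.4% of all genes), *Gja1* higher (0.42) and *Gjb1* lower (-1.35).

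Cluster 3 had 4 of 9 genes past the test (11.6% of all genes), with *Gjb1* (1.14), *Gjc1* (0.82) and *Gjc3* (0.53) higher and *Gja1* (-0.35) lower. The call on *Gja1* was lost there when the RNA of empty droplets was subtracted, at a difference of -0.36 (edgeR adjusted p 0.112). Cluster 4 had 3 of 9 past it (10.4% of all genes), with *Gjb1* (1.71) and *Gjc3* (0.95) higher and *Gja1* (-0.60) lower. Cluster 5 had 0 of 9 genes past edgeR's test, where 1.46% of all genes passed. DESeq2 called 0 there as well, and at an unadjusted p under 0.05 there was 1 gene (*Gjc3*, p 0.0279 by edgeR). It held the largest share of cells with a high doublet score among SGC clusters, 17.8%, and its *Gja1* level of 181 and 172 CPM lay between those of the *Hes5* clusters 1 and 8 and those of the *Lgr5* clusters. These comparisons share samples, since each cluster is part of the reference of the others.

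**Figure D1:**
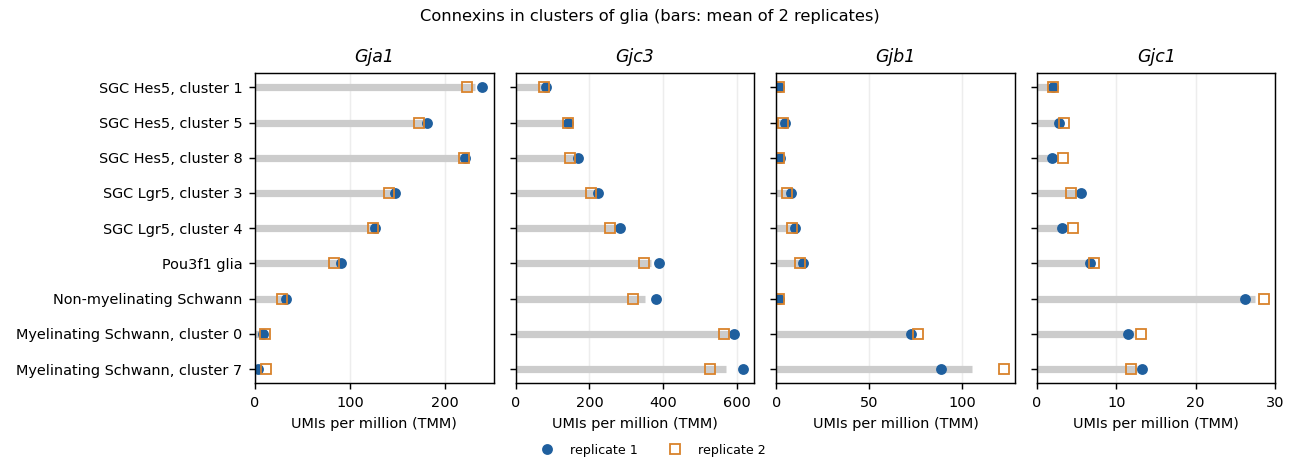
TMM-normalized CPM (x axes) of *Gja1*, *Gjc3*, *Gjb1* and *Gjc1* in each glial cluster, with replicates 1 and 2 as points and their mean as a bar. *Gja1* is highest in SGC cluster 1 (239 and 223 CPM), *Gjc3* and *Gjb1* in MSCs and *Gjc1* in NMSCs (26.3 and 28.6 CPM).

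Schwann cells and the *Pou3f1* glia were compared with SGCs next. MSCs had the highest *Gjc3* of all clusters, 590 and 564 CPM in cluster 0 and 616 and 527 in cluster 7, and the highest *Gjb1*, between 72.3 and 122 CPM. NMSCs had *Gjb1* at only 1.52 and 1.64 CPM, a log2 difference of 5.78 ± 0.31 between MSCs and NMSCs (edgeR adjusted p 6.85e-16). NMSCs stood out among glia for *Gjc1*, at 26.3 and 28.6 CPM, against 11.5 to 13.2 in MSCs and at most 7.15 in the other glial clusters. *Gja1* was at 32.8 and 28.1 CPM in NMSCs and at 2.65 to 11.9 CPM in MSCs.

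Between SGCs and NMSCs 5 of the 9 genes passed the test, where 36.6% of all genes did. *Gja1* was higher in SGCs by 2.52 ± 0.13, *Gjb2* by 2.16 ± 0.45 and *Gjb1* by 1.20 ± 0.43 on the log2 scale, and *Gjc3* (-1.13 ± 0.08) and *Gjc1* (-3.13 ± 0.15) were lower. The call on *Gjb1* was lost without TMM factors (edgeR adjusted p 0.0645). Between SGCs and MSCs 6 of 9 passed (58.1% of all genes). *Gja1* (4.46 ± 0.12), *Gjb2* (4.03 ± 0.48) and the ATP channel gene *Panx1* (1.32 ± 0.21) were higher in SGCs, and *Gjb1* (-4.58 ± 0.13), *Gjc3* (-1.85 ± 0.06) and *Gjc1* (-1.99 ± 0.16) were lower. Between MSCs and NMSCs 5 of 9 passed (39.6% of all genes), with *Gjc3* and *Gjb1* higher and *Gja1*, *Gjc1* and *Panx1* lower in MSCs.

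The *Pou3f1* glia had 6 of 9 genes past the test against SGCs, where 32.4% of all genes passed. *Gjb1* (14.2 and 12.6 CPM, a log2 difference of 1.87 ± 0.20), *Gjc3* (1.20 ± 0.08), *Gjc1* (1.14 ± 0.19) and *Panx1* (0.49 ± 0.16, edgeR adjusted p 0.0188) were higher, and *Gja1* (-1.01 ± 0.10) and *Gjb2* (-2.15 ± 0.37) were lower. Set against the *Lgr5* state alone, 5 of 9 passed (17.4% of all genes), with the same genes other than *Panx1* (0.47 ± 0.19, edgeR adjusted p 0.0825, and 0.0398 with a replicate block). Against NMSCs 3 of 9 passed (22.5% of all genes). *Gja1* (1.51 ± 0.15) and *Gjb1* (3.06 ± 0.39) were higher and *Gjc1* (-1.99 ± 0.19) was lower, while *Gjc3* differed by 0.07 ± 0.11 and did not pass.

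The connexins of vessel cells were the next question. Mural cells held *Gja4*, a connexin known from arterial endothelium and from mural cells, and *Gjc1*. Endothelial cells held *Gja1* with less of the other 2. *Gja1* was at 194 and 206 CPM in endothelial cells (mean of 3 clusters) and at 3.84 and 5.48 CPM in mural cells (mean of 4 clusters), a log2 difference of 5.86 ± 0.24 (edgeR adjusted p 2.52e-21). *Gja4* was lower in endothelial cells by -3.37 ± 0.15 and *Gjc1* by -2.58 ± 0.12. These were the 3 of 9 genes that passed, where 39.1% of all genes did. Outside the *Tnc* cluster the mural level of *Gja1* was 0.859 to 6.95 CPM. The mural level of *Gja1* lay below that of macrophages, 30.6 and 31.1 CPM, and below the RNA of empty droplets, where *Gja1* was at 107 and 108 CPM.

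Within mural cells the *Casq2* cluster had the highest level of both genes in both samples. *Gja4* was at 459 and 436 CPM there, at 268 and 272 CPM in pericyte-like cells, at 286 and 233 CPM in smooth muscle-like cells and at 135 and 114 CPM in the *Tnc* cluster. *Gjc1* was at 495 and 530 CPM in the *Casq2* cluster, at 402 and 356 in pericyte-like cells, at 352 and 309 in smooth muscle-like cells and at 138 and 161 in the *Tnc* cluster. Pericyte-like and smooth muscle-like cells overlapped for *Gja4* and nearly met for *Gjc1*.

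Against pericyte-like cells, *Gja4* was higher in the *Casq2* cluster by 0.73 ± 0.14 on the log2 scale (edgeR adjusted p 0.000321) and *Gjc1* by 0.43 ± 0.12 (edgeR adjusted p 0.0176), 2 of 9 genes where 10.3% of all genes passed. Against smooth muscle-like cells the differences were 0.78 ± 0.15 (edgeR adjusted p 0.000274) and 0.63 ± 0.13 (edgeR adjusted p 0.000868), again 2 of 9 genes, where 9.33% of all genes passed. The *Casq2* cluster also held intermediate levels of mural markers, with *Acta2* at 4572 CPM against 291 in pericyte-like and 12019 in smooth muscle-like cells, pooled over both samples and without normalization. Between smooth muscle-like and pericyte-like cells 0 of 9 genes passed edgeR's test, where 18% of all genes did. DESeq2 called 0 as well, and 1 gene had an unadjusted p under 0.05 (*Panx1*, p 0.0232 by edgeR, with 0 CPM in both smooth muscle-like samples). *Gja4* differed by -0.05 ± 0.16 (edgeR adjusted p 0.991) and *Gjc1* by -0.20 ± 0.14 (edgeR adjusted p 0.411), and without TMM factors *Gjc1* passed (-0.43, edgeR adjusted p 0.0227). An absence of calls at these errors does not show that the levels were equal.

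Among endothelial cells *Gja4* was highest in the arterial-like cluster. It was at 74.4 and 91.1 CPM there, at 27.5 and 20.6 CPM in the *Car4* cluster and at 8.19 and 5.65 CPM in the *Selp* cluster, and these ranges did not overlap. The arterial-like cluster exceeded the *Car4* cluster by 1.80 ± 0.22 (edgeR adjusted p 4.05e-07), the only 1 of 9 genes that passed, where 5.15% of all genes did. *Gja1* was at 279 and 275 CPM in the arterial-like cluster and at 216 and 194 CPM in the *Car4* cluster, and the difference of 0.43 ± 0.14 did not pass (edgeR adjusted p 0.0803). It passed under DESeq2 (0.50, adjusted p 0.00114), without TMM factors (0.48, adjusted p 0.0443) and without the filter on low counts (0.49, adjusted p 0.00353). *Gja5*, a connexin gene of arterial endothelium that is no member here, had 0 UMIs in the 3 endothelial clusters of both samples with all UMIs counted. In the arterial-like cluster 0 of 756245 and 0 of 1252809 UMIs allow a level of up to 3.97 and 2.39 CPM before TMM scaling.

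In the *Selp* cluster 3 of 9 genes passed the test against the *Car4* cluster, all of them lower, where 11.8% of all genes passed and the median over all genes was -0.11 on the log2 scale. *Gjc1* was at 19.1 and 28.3 CPM against 86.6 and 91.7 (-1.92 ± 0.33, edgeR adjusted p 4.72e-05). *Gja1* was at 87.3 and 150 CPM, a difference of -0.80 ± 0.21 (edgeR adjusted p 0.00892) that did not pass once the RNA of empty droplets was subtracted (-0.82, adjusted p 0.0826). *Gja4* differed by -1.79 ± 0.57 (edgeR adjusted p 0.032) and lost its call under 4 alternatives. The difference was -1.63 with DESeq2 (adjusted p 0.0946), -1.66 without TMM factors (0.0578), -1.78 with the RNA of empty droplets subtracted (0.068) and -1.31 without cells of high doublet score (0.369). The cluster holds 24 and 20 cells.

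**Figure D2:**
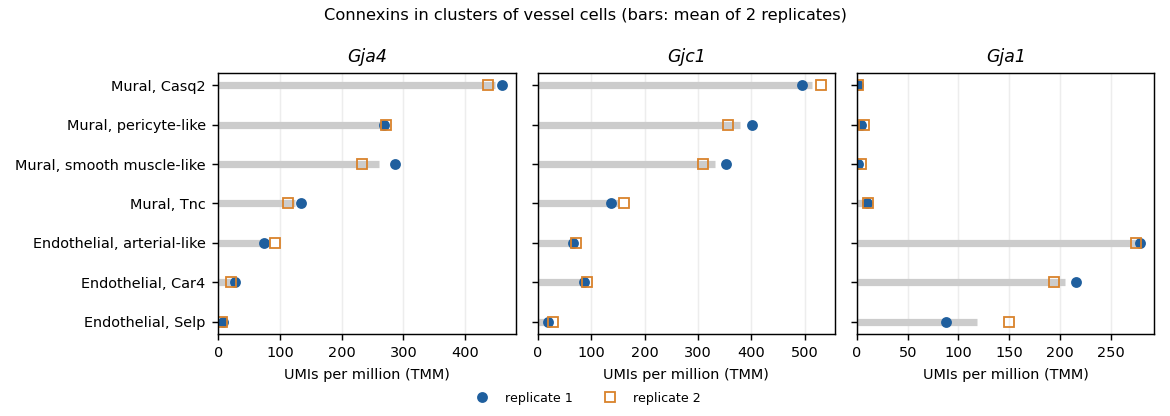
TMM-normalized CPM of *Gja1*, *Gja4* and *Gjc1* (x axes) in the 4 mural and 3 endothelial clusters, with replicates 1 and 2 as points and their mean as a bar. *Gja4* and *Gjc1* are highest in the *Casq2* mural cluster (436 to 530 CPM) and *Gja1* in the arterial-like endothelial cluster (279 and 275 CPM).

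Fibroblast clusters held the beta connexins *Gjb2* and *Gjb6*, which are often expressed together in the meninges and the inner ear. In the *Igfbp6* cluster *Gjb2* was at 55.7 and 67.4 CPM and *Gjb6* at 60.1 and 83.8 CPM, the highest levels of both genes among the 21 clusters. The *Apod* cluster had *Gjb6* at 38.3 and 43.3 CPM with *Gjb2* at 7.73 and 8.76 CPM, so that the neighbouring genes were not tied in level. The *Mgp* cluster had 0.964 and 2.31 CPM of *Gjb6* and 2.25 and 7.51 CPM of *Gjb2*.

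Each fibroblast cluster was compared with the mean log level of the other 2. The *Igfbp6* cluster had 4 of 9 genes past the test (18.8% of all genes), with *Gjb2* (3.27 ± 0.27) and *Gjb6* (3.13 ± 0.32) higher and *Gjc1* (-1.24 ± 0.28) and *Panx1* (-1.89 ± 0.58) lower. The *Mgp* cluster had 4 of 9 (24.6% of all genes), with *Gja1* (1.23 ± 0.14, at 106 and 107 CPM) higher and *Gjb6* (-5.01 ± 0.43), *Gjb2* (-2.19 ± 0.33) and *Gjc3* (-0.58 ± 0.21) lower. The *Apod* cluster had 7 of 9 (26.3% of all genes). There *Gjb6* (1.88 ± 0.32, though the *Igfbp6* cluster alone had more of it), *Gja4* (1.25 ± 0.38), *Panx1* (1.04 ± 0.39), *Gjc3* (0.88 ± 0.18) and *Gjc1* (0.79 ± 0.20) were higher, and *Gja1* (-1.52 ± 0.16) and *Gjb2* (-1.08 ± 0.30) were lower. The *Apod* cluster also had the largest share of empty-droplet RNA of the 3, 8.57% and 11.7%. The fibroblast levels of *Gjc3*, 14.5 to 35.6 CPM, lay at or below those of macrophages (34.7 and 43.7 CPM). The call on *Gjc3* in the *Apod* cluster was kept when the RNA of empty droplets was subtracted. The call on *Panx1* in the *Apod* cluster was lost under 4 alternatives, with edgeR adjusted p of 0.0507 to 0.0819. The call on *Gjc3* in the *Mgp* cluster was lost without TMM factors (0.0633) and without cells of high doublet score (0.256), and the latter also ended that on *Panx1* in the *Igfbp6* cluster (0.0561).

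Pannexins were highest in neurons. *Panx1* was at 59.2 and 49.9 CPM in the deep neuron cluster and at 9.24 and 8.69 CPM in SGCs, a log2 difference of 2.61 ± 0.13 (edgeR adjusted p 9.24e-19). *Panx2*, a pannexin of the nervous system that mostly stays inside the cell, was at 21.9 and 24.6 CPM in neurons and at 0.18 and 0.23 CPM in SGCs, a log2 difference of 6.77 ± 0.31 (edgeR adjusted p 1.43e-16). Neurons did not overlap with any other cluster for either gene. The next highest *Panx1* was in the small *Tnc* mural cluster, at 28.2 and 26.4 CPM, the cluster with the high doublet scores and fibroblast genes given above. In this comparison 6 of 9 genes passed, where 71.2% of all genes did, so the count of members is not above the background. *Gja1* (-5.08 ± 0.17) and *Gjc3* (-4.73 ± 0.16) were lower in neurons, as were *Gjb2* and *Gjb1*.

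Neuron results rest on few cells and on barcodes shared between the libraries. Without shared barcodes 22 of 55 and 28 of 54 neurons were left, and the differences were 2.49 ± 0.20 for *Panx1* (edgeR adjusted p 2.34e-13) and 6.73 ± 0.42 for *Panx2* (1.84e-13). When the limit on UMIs per cell was also applied to neurons, *Panx1* differed by 1.79 ± 0.46 (edgeR adjusted p 0.00169), and *Panx2* had too few counts to be tested. With the RNA of empty droplets subtracted the differences were 2.69 ± 0.15 for *Panx1* and 8.03 ± 0.35 for *Panx2*.

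All UMIs of the deep neurons were also read cell by cell. *Panx1* was found in 51 of 55 and 45 of 54 neurons, with a median of 5 and 4 UMIs, and *Panx2* in 46 and 43 neurons, with a median of 2 UMIs in both samples. Both genes were found in 45 and 38 neurons and neither in 3 and 4. These shares rest on a median of 110283 and 92083.5 UMIs per neuron. Thinned to 3000 UMIs per cell, *Panx1* was found in 23.6% and 11.1% of neurons and *Panx2* in 7.27% and 5.56%, against 2.45% and 2.29% of SGCs for *Panx1*. The shallow neuron cluster held 33 UMIs of *Panx1* among 354534 UMIs in replicate 1 and 8 among 234204 in replicate 2.

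**Figure D3:**
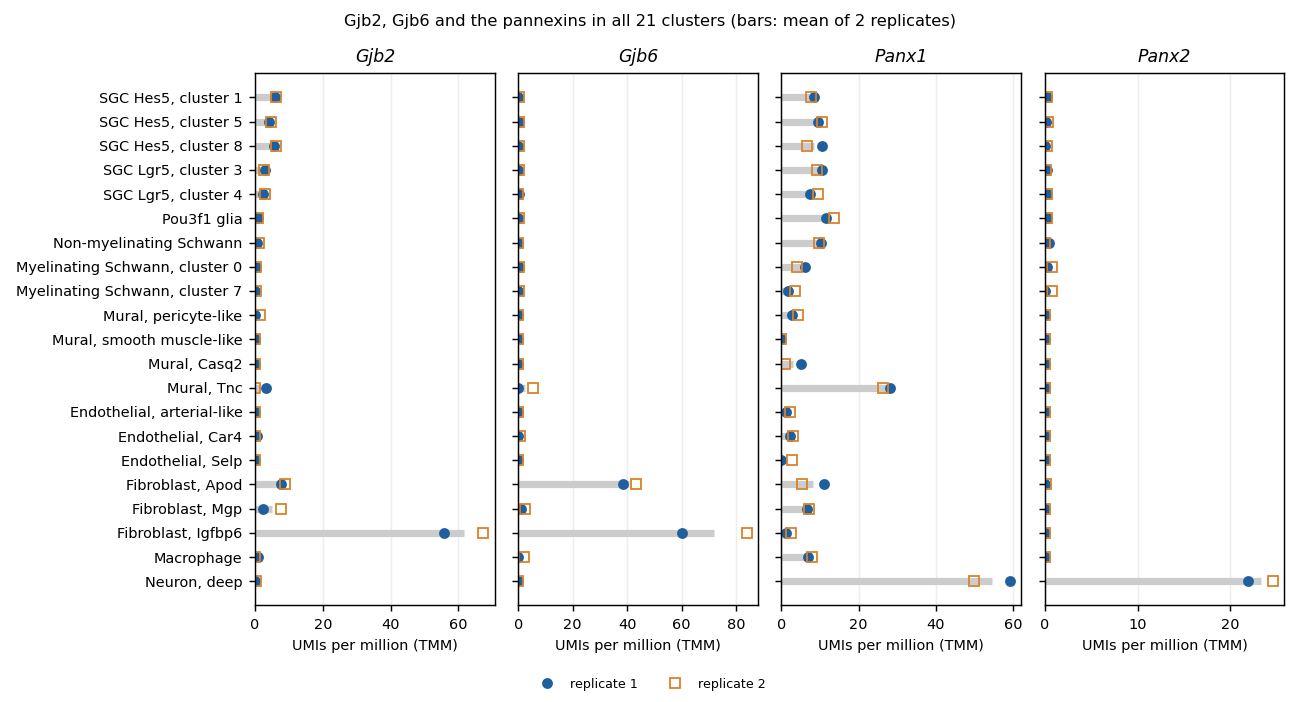
TMM-normalized CPM (x axes) of *Gjb2*, *Gjb6*, *Panx1* and *Panx2* in the 21 clusters, with replicates 1 and 2 as points and their mean as a bar. *Panx1* (59.2 and 49.9 CPM) and *Panx2* (21.9 and 24.6 CPM) are highest in neurons, and *Gjb2* and *Gjb6* in the *Igfbp6* fibroblasts.

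The central question was whether 1 cell holds several connexins. Cells were thinned to 3000 UMIs so that deep cells do not appear richer, and shallower cells were left out. This kept 1466 of 1612 and 1518 of 1641 MSCs, 618 of 653 and 680 of 733 NMSCs, 515 of 533 and 701 of 759 fibroblasts, and 3557 of 3564 and 3366 of 3373 SGCs. The number of cells with both genes was compared with the number expected if detection were independent inside each cluster and sample. Of the 36 pairs of members, those with at least 10 expected cells in both samples are described, with exact binomial 95% intervals that cover counting error only. No p-value is given, because cells of 1 sample are not replicates.

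In SGCs *Gja1* was detected in 35.5% and 35.1% of cells and *Gjc3* in 37.3% and 33.1%. In macrophages, which should lack both genes, 3.50% and 3.64% of cells had *Gja1* and 6.50% and 4.85% had *Gjc3*, at a median of 11276.5 and 11113 UMIs before thinning against 14659 and 15715 in SGCs. Without cells of high doublet score the share of macrophages with none of the 7 connexins was 95.5% and 98.6% (177 and 138 cells), against 91.0% and 91.5% with them. Both genes were found together in 11.7% (10.7 to 12.8) and 10.0% (9.05 to 11.1) of SGCs. That was 416 cells where 441 were expected in replicate 1 and 338 where 363 were expected in replicate 2, ratios of 0.943 (0.859 to 1.03) and 0.931 (0.839 to 1.03). The intervals held 1 in both samples, and both ratios lay below 1. *Gja1* with *Kcnj10*, the inward rectifier potassium channel of SGCs, served as a reference pair and gave ratios of 0.998 and 1.04. With all UMIs of each cell, 61.8% and 63.0% of SGCs had both *Gja1* and *Gjc3*, and the ratio within depth quartiles was 1.00 and 0.997.

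At 3000 UMIs 9.75% and 8.27% of *Hes5* cells and 14.3% and 12.6% of *Lgr5* cells had both genes. *Gja1* was in 40.5% and 40.0% of *Hes5* and in 29.0% and 27.9% of *Lgr5* cells, and *Gjc3* in 26.3% and 24.1% of *Hes5* and in 51.8% and 46.1% of *Lgr5* cells. Cluster 8 had the lowest ratios for this pair, 0.777 (0.585 to 1.01) and 0.750 (0.520 to 1.04), below 1 in both samples. Each interval, taken for 1 sample alone, reached 1, and no test over both samples was made. Of cluster 8 cells with *Gja1*, 27.8% and 25.6% also had *Gjc3*, which 35.8% and 34.1% of all cells of the cluster had. The pair *Gja1* and *Gjc1* was found in 4 SGCs of replicate 1 where 10.6 were expected (ratio 0.379, 0.103 to 0.970) and in 11 of replicate 2 where 12.2 were expected (0.899, 0.449 to 1.61). Both ratios lay below 1, and the interval left out 1 in replicate 1 only. With all UMIs 88 SGCs of replicate 1 had both where 103 were expected within depth quartiles (ratio 0.858). In replicate 2 it was 107 where 118 were expected (0.904). The rarer connexins *Gjb1* and *Gjb2* were each found in 1.10% to 1.41% of SGCs, and their pairs with *Gja1* and *Gjc3* lay between 0.778 and 1.25 of the expected number.

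Glia around the SGCs gave the same kind of result. In *Pou3f1* glia 15.7% and 14.1% of cells had both *Gja1* and *Gjc3* (ratios 0.983 and 1.03), and 2.98% and 2.85% had *Gjb1* with *Gjc3* (1.21 and 1.31, intervals from 0.773 to 1.98). In MSCs 13.4% and 14.6% had *Gjb1* with *Gjc3*, ratios of 0.978 (0.854 to 1.11) and 0.959 (0.845 to 1.08), and the reference pair *Gjc3* with *Mag*, a myelin adhesion gene, gave 1.01 in both samples. Of MSCs with *Gjb1*, 76.4% and 73.7% also had *Gjc3*, which 78.0% and 76.7% of all MSCs had. In NMSCs 6.47% and 7.06% had *Gjc1* with *Gjc3* (1.04 and 1.16).

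Mural cells held 2 connexins most often. *Gja4* was detected in 50.8% and 51.9% and *Gjc1* in 64.0% and 61.1% of mural cells at 3000 UMIs, and both in 35.8% (30.8 to 41.0) and 34.0% (28.5 to 39.9). The ratios were 1.05 (0.906 to 1.21) and 1.02 (0.857 to 1.20), and the reference pair of *Gja4* with the mural receptor gene *Notch3* gave 1.00 and 1.02. *Notch3* was in 91.3% and 92.6% of mural cells, so the ratio of this reference pair had little room to depart from 1. In the *Casq2* cluster 51.4% and 50.5% of cells had both, in pericyte-like cells 34.3% and 30.7%, and in smooth muscle-like cells 27.1% and 20.0%. With all UMIs the share of *Casq2* cells with both was 84.3% and 83.9%. In endothelial cells *Gja1* and *Gjc1* were found together in 9.26% and 9.09%, with ratios of 1.15 (0.656 to 1.84) and 0.893 (0.519 to 1.41).

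Over the cell types 20 pairs of members were described, beside 3 reference pairs. For 19 of the 20 the interval of the ratio held 1 in both samples, and the exception was *Gja1* with *Gjc1* in SGCs of replicate 1. Each interval is that of the observed share, divided by an expected number taken from the same cells. An interval that holds 1 therefore does not show independence, which was not tested. The ratios ran from 0.379 to 1.33, the highest being *Gjc3* with *Panx1* in SGCs of replicate 1 (0.949 to 1.80), which was 1.02 in replicate 2. Expected numbers near 10 leave wide intervals, so that smaller departures from independence were not detectable for the rare genes at this depth.

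In fibroblasts *Gjb2* and *Gjb6* were found together in 3 and 10 cells, where 1.53 and 3.73 were expected. These expected numbers lie under the minimum of 10, so the pair is given by its counts alone. In the *Igfbp6* cluster *Gjb2* was found in 15.3% and 15.1% of cells and *Gjb6* in 8.47% and 17.9%.

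**Figure D4:**
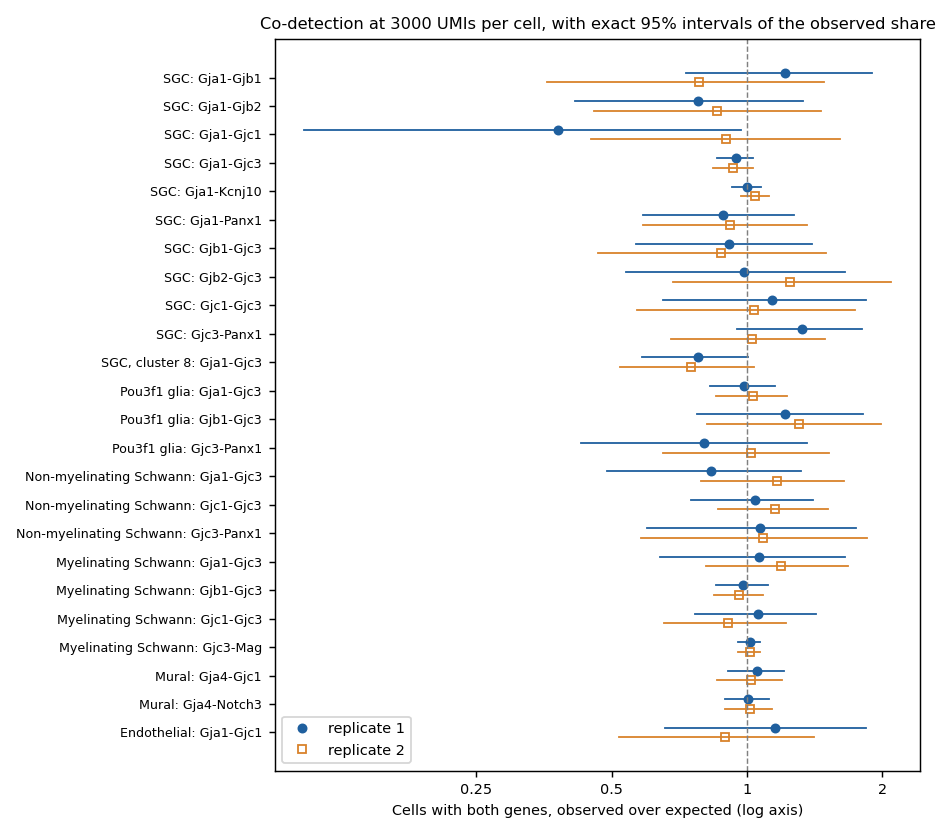
Cells observed with both genes divided by the number expected under independent detection inside each cluster and sample, at 3000 UMIs per cell on a log axis, for the pairs described in each type, the reference pairs and 1 pair in SGC cluster 8, with exact 95% intervals by replicate. All intervals but that of *Gja1* with *Gjc1* in SGCs of replicate 1 cross 1. They are intervals of the observed share and no test of independence. *Gja1* with *Gjc3* in SGCs lies at 0.943 and 0.931 and *Gja4* with *Gjc1* in mural cells at 1.05 and 1.02.

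The number of different connexins among the 7 was counted per cell at the same depth. Mural cells had 2 or more in 36.9% and 34.7% of cells, and *Casq2* cells in 52.3% and 51.4%. *Pou3f1* glia had 2 or more in 20.2% and 17.6%, MSCs in 17.3% and 18.7%, endothelial cells in 11.7% and 15.3%, SGCs in 13.3% and 11.6% and NMSCs in 9.22% and 10.9%. The ranges of the samples overlapped for *Pou3f1* glia and MSCs and for SGCs and endothelial cells, and for no other neighbours in this order. Fibroblasts had 3.50% and 5.56%, and macrophages 2.00% and 0.606%. Without cells of high doublet score the macrophage share was 0.565% and 0%. Among SGCs the share was 10.9% and 9.68% in the *Hes5* state and 16.5% and 14.4% in the *Lgr5* state.

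In every type most cells with a connexin showed 1 gene at this depth, and the *Casq2* cluster was an exception within mural cells. In SGCs 24.6% and 22.1% of cells had *Gjc3* alone, 23.2% and 24.4% had *Gja1* alone, and 37.3% and 40.3% had no connexin. In MSCs 60.8% and 58.2% had *Gjc3* alone. At 3000 UMIs a cell without a UMI of a gene may still express it. The all-UMI shares above are higher but can also miss cells that express a gene, so they are no upper limit.

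**Figure D5:**
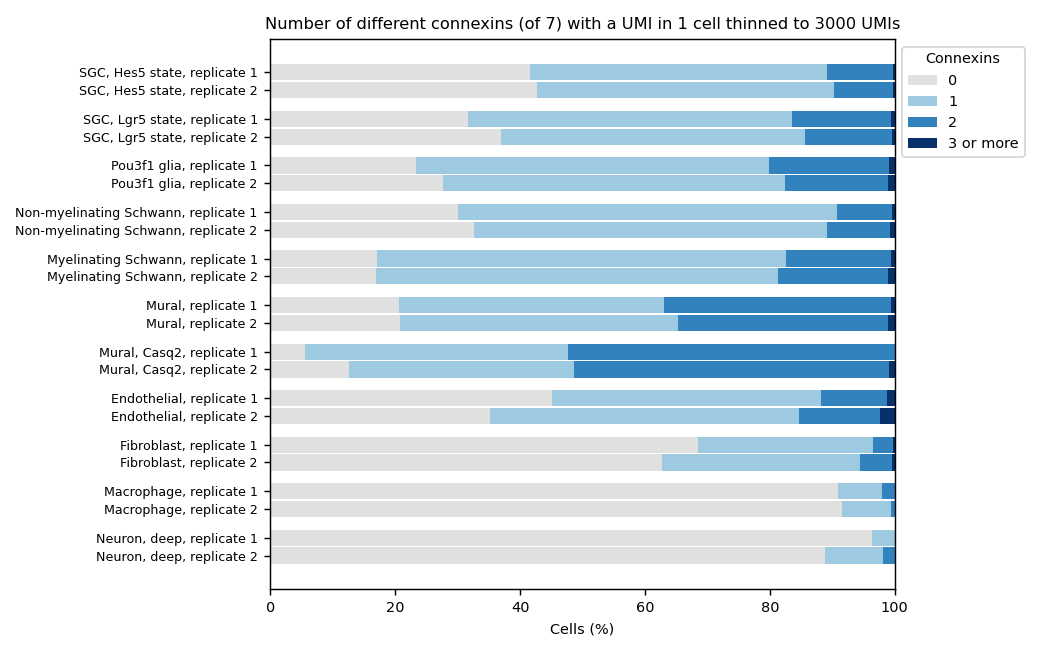
Percent of cells with 0, 1, 2 or at least 3 of the 7 connexins at 3000 UMIs per cell, for each type and replicate, with SGCs by state and the *Casq2* mural cluster shown beside all mural cells. *Casq2* cells have the largest share with at least 2 (52.3% and 51.4%), and macrophages have 2.00% and 0.606%.

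As a check on droplets that hold 2 cells, the glial *Gjc3* was looked for beside the vessel connexin *Gja4*. Both were found in 1 of 3557 and 0 of 3366 SGCs, where 0 allows a share of up to 0.0891%. In MSCs it was found in 3 of 1466 and 0 of 1518 cells, in mural cells in 2 of 358 and 2 of 285, and in endothelial cells in 0 of 162 and 1 of 176. *Gjc3* itself was found in 1.12% and 0.702% of mural cells.

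Genes that act with connexins and on released ATP were read from lists of 14 other connexin and pannexin genes, 6 connexin partners and 16 genes of ATP release and sensing. Of the other connexins and pannexins 1 of 14, *Gjb5*, had enough counts to be tested. It passed in none of the comparisons between SGC or vessel clusters and was higher in *Apod* fibroblasts, at 22.6 and 21.2 CPM (1.40 ± 0.33, edgeR adjusted p 0.00288). All 6 partners were tested, and 15 of the 16 ATP genes.

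Between the SGC states 3 of 6 partners were higher in the *Hes5* state, where 12.4% of all genes were higher and 9.46% lower. *Src*, a kinase that phosphorylates the tail of the *Gja1* protein, was at 52.4 and 51.2 CPM against 37.6 and 36.4 (0.47 ± 0.07, edgeR adjusted p 7.82e-06). The scaffold gene *Tjp1* (0.21 ± 0.07) and the actin-binding *Dbn1* (0.33 ± 0.10) were also higher. Of the ATP genes 2 of 15 were higher and 1 was lower, with a list median of -0.07 on the log2 scale against 0.01 over all genes. *Entpd2* and *Entpd1*, which encode enzymes that break down extracellular ATP, were higher in the *Hes5* state. *Entpd2* was at 117 and 125 CPM against 69.5 and 86.0 (0.64 ± 0.10), and *Entpd1* at 92.8 and 103 against 59.0 and 55.8 (0.76 ± 0.09). *P2rx7*, an ATP-gated channel, was lower in the *Hes5* state, at 71.6 and 71.3 CPM against 117 and 112 (-0.68 ± 0.06, edgeR adjusted p 3.57e-10).

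In vessel cells the partners went in both directions. *Tjp1* was at 945 and 1051 CPM in endothelial and at 137 and 141 CPM in mural cells (2.63 ± 0.08), and the caveolar gene *Cav1* (0.88 ± 0.07) was also higher in endothelial cells. *Src* (-5.13 ± 0.72), the ubiquitin ligase gene *Nedd4* (-0.38 ± 0.06) and *Dbn1* (-1.94 ± 0.40) were lower, so that 2 of 6 partners were higher (20.5% of all genes) and 3 lower (18.6%). Of the ATP genes *P2rx7* (4.88 ± 0.44) and *Entpd1* (1.92 ± 0.12) were higher in endothelial cells and *P2ry14*, a receptor for UDP sugars, was lower, at 0.956 and 2.35 CPM against 99.4 and 81.2. Inside mural cells *Entpd1* followed the smooth muscle-like cells, at 325 and 332 CPM against 37.7 and 15.3 in pericyte-like cells (3.52 ± 0.25), with 131 and 123 CPM in the *Casq2* cluster. Of the partners 4 of 6 were lower in smooth muscle-like than in pericyte-like cells (*Src*, *Tjp1*, *Nedd4* and *Dbn1*). In this comparison 18% of all genes passed in either direction. Among ATP genes *P2ry14* was lower. *P2rx7* (2.75 and 7.07 CPM) and *P2ry2* (6.88 and 1.77 CPM) were higher in smooth muscle-like cells. Both had no UMI in pericyte-like cells, and these 2 calls rest on a few UMIs.

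Against pericyte-like cells the *Casq2* cluster had 1 partner higher (*Cav1*, 0.88 ± 0.14) and 3 lower (*Src*, *Nedd4* and *Dbn1*). In this comparison 10.3% of all genes passed in either direction. Of the ATP genes *Entpd1* was higher and *P2ry14* lower, and *P2rx7* was higher at 2.99 and 4.29 CPM, a few UMIs. Against smooth muscle-like cells, where 9.33% of all genes passed in either direction, 3 partners were higher (*Src*, *Cav1* and *Tjp1*), *P2ry14* was higher and *Entpd1* lower. In the arterial-like cluster *Tjp1* (0.77 ± 0.11) was higher and *Cav1* (-0.60 ± 0.12) lower than in the *Car4* cluster, the purine receptor genes *P2ry1* (14.6 and 15.3 against 0.574 and 1.76 CPM) and *P2ry2* were higher, and *P2ry14*, with no UMI in the arterial-like cells, was lower. The *Selp* cluster was lower than the *Car4* cluster in *Tjp1* (-1.44 ± 0.13). Of the ATP genes 5 of 15 were higher in neurons (*P2rx3*, *P2ry1*, *P2rx2*, *Nt5e* and *Entpd3*), as were 37.8% of all genes, and 6 lower, as were 33.4% (*Entpd2*, *P2ry12*, *P2rx7*, *P2rx4*, *P2ry2* and *Entpd1*). *P2rx3*, the ATP receptor of nociceptors, was at 15.5 and 18.5 CPM in neurons and at 0.512 and 0.368 CPM in SGCs. Of the partners 3 of 6 were higher in neurons (*Dbn1*, *Cav1* and *Csnk1d*) and 2 lower (*Src* and *Nedd4*).

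Among the other glia, SGCs had 2 of 6 partners (*Src* and *Nedd4*) above MSCs and 4 below, and 5 of 15 ATP genes above and 2 below. Between SGCs and MSCs 58.1% of all genes passed in either direction, and between SGCs and NMSCs 36.6% did. Of the ATP genes 2 of 15 were higher and 5 lower when SGCs were set against NMSCs, and of the partners *Src* was higher and *Cav1* and *Nedd4* were lower. *P2rx7* was lower in SGCs than in either Schwann cell type and lower in SGCs than in *Pou3f1* glia, while *Entpd1* was higher in SGCs than in each of these 3. In *Apod* fibroblasts 8 of 15 ATP genes were higher than in the other fibroblasts, where 26.3% of all genes passed in either direction, beside the larger share of empty-droplet RNA given above.

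Genes with the pattern most like each member were taken by Pearson correlation of log2(CPM + 1) over the 21 clusters among 13593 genes, with clusters of 1 library sharing its depth. For *Gja1* they were *St3gal4* (r 0.93), *Slc25a20* (0.92) and *Gm48742* (0.91). For *Gjc3* they were *Gal3st1* (0.98), which encodes the sulfotransferase for sulfatide, *Plekhb1* (0.97) and *Gatm* (0.97). For *Gjb1* they were *Fxyd3* (0.96), *Piwil1* (0.94) and *Mlip* (0.94). The vessel connexins had *Tinagl1* (0.95), *Map3k20* (0.95) and *Ppp1r12a* (0.93) beside *Gja4*, and *Fzd10os* (0.91), *Inpp5a* (0.91) and *Ppp1r12a* (0.91) beside *Gjc1*. *Gjb2* was most like *Efnb3* (0.90), *Gm33906* (0.89) and *Ptgds* (0.87), and *Gjb6* like *Cyp2s1* (0.97), *Slc22a3* (0.97) and *Slc6a13* (0.97). *Panx1* was most like *Enox1* (0.89), *Gm6994* (0.88) and *Sytl3* (0.87), and *Panx2* like *Haglr* (0.99), *Vwa5b2* (0.99) and *Ceacam10* (0.99), whose highest level was in neurons for all 6. Among the members themselves *Gja4* and *Gjc1* had r 0.94, *Gjb1* and *Gjc3* 0.81 and *Gjb2* and *Gjb6* 0.74, and the lowest value was -0.79 for *Gja4* and *Gjc3*.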

How the data were processed

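Single live cells of L4 and L5 DRGs were captured with the 10x Genomics 3′ chemistry in 2 samples. The authors aligned the reads with Cell Ranger 7.1.0 (file header) to mm10 and deposited raw UMI counts per gene and barcode, for all 1762921 and 1832899 barcodes. Whether intronic reads were counted is not given in the sources used here.

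Here, cells were called against the RNA of empty droplets (ranks 45000 to 90000, 10000 simulations, false discovery rate 0.01) and kept above 300 genes. Counts were normalized with SCTransform and clustered in Seurat 5.3.0 (sctransform 0.4.2) on 3000 variable genes without the listed connexin, pannexin, partner and ATP genes, with 30 principal components and a resolution of 0.8. A cluster took a name with at least 3 markers of a class among its 50 leading genes. Clusters of doublets, of mitochondrial RNA and of shallow cells were removed, as were cells beyond 5 median absolute deviations in UMIs (over 46352.5, not applied to the deep neurons, of which 91 of 116 exceed it) or mitochondrial share (over 22.1%). Mural and endothelial cells were clustered again (2000 genes, 10 components, resolution 0.3).

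Counts were summed per sample and cluster with at least 20 cells and tested in 1 fit of 21 clusters by 2 samples with edgeR 4.0.16 (TMM factors, quasi-likelihood, a count of at least 10 in 2 profiles), Benjamini-Hochberg adjusted over 16894 genes, threshold 0.05. A comparison with several clusters is a difference of their mean log levels. For detection, cells were thinned to 3000 UMIs. The code was tested on simulated counts. The alternatives were DESeq2 1.42.0, no TMM factors, no filter on low counts, no cells of high doublet score, subtraction of empty-droplet RNA, a replicate block, no shared barcodes, the UMI cutoff on neurons, other thinning depths and expected numbers over a whole type. Those on shared barcodes and on the neuron cutoff were chosen after seeing the data. The genes described and the lists and comparisons were chosen with earlier results of these data known. Genes named are all members, the listed partner and ATP genes past the test in the SGC and vessel comparisons, the 3 genes most like each member and leading markers of clusters. Listed genes named for neurons, Schwann cells and fibroblasts, and *Gja5*, were chosen after their values were seen. Intervals and limits for a count of 0 (3 counts) cover counting error only. 1 gene of the partner list is not reported here. Samples were grouped by the labels. Per-sample profiles with the same number come from 1 library, and their deviations from the cluster means correlated with a median r of 0.0693 (210 pairs of clusters).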

Additional observations from a re-analysis of the deposited data

How the results depend on the processing

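Over all alternatives no member changed direction after a call. Of the single values 869 counted as unchanged, 18 lost their call and 12 gained one. Unchanged means the same side of the threshold. With 1 replicate left out there is no test, and a value counted as unchanged unless a called difference changed direction. The number of member calls was 18 to 22 between SGC clusters (19 as reported), 9 to 12 in vessel cells (11), 30 to 31 among glia (30) and 18 to 21 in neurons and fibroblasts (21). Calls gained beside those given in the report were *Gjb2* in clusters 8, 3 and 4 with DESeq2 (adjusted p 0.0222, 0.0478 and 0.0205), *Panx1* in *Pou3f1* glia against the *Lgr5* state without TMM factors (0.0277), *Gjb2* between MSCs and NMSCs with empty-droplet RNA subtracted (0.0113), and *Gjc3* in *Igfbp6* and *Gja4* in *Mgp* fibroblasts without cells of high doublet score. With the limit on UMIs applied to neurons the calls on *Gjb2* (0.136) and *Gjb1* (0.686) against SGCs were lost. That on *Panx2* was lost as well, since it could not be tested, and is not among the single values counted above.

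Ratios of observed to expected cells moved with depth, where fewer UMIs leave fewer cells with both genes. The mean over samples for *Gja1* with *Gjc3* in SGCs was 0.937, and it was 0.863 at 1000 UMIs, 0.961 at 6000, 0.999 unthinned and 0.875 with the expected number taken over the whole type. For *Gja4* with *Gjc1* in mural cells it was 1.04, and 1.18 at 1000 UMIs, 1.01 at 6000, 1.00 unthinned and 1.09 over the whole type. For *Gjb1* with *Gjc3* in MSCs it was 0.968, and 1.03, 1.02 and 0.998 at 1000, 6000 and unthinned. Unthinned, the commoner gene of each pair was in most cells, which limits how far such a ratio can depart from 1. At 1000 UMIs the share of cells with at least 2 connexins was 1.84% of SGCs, 10.6% of mural cells and 4.06% of MSCs, against 12.5%, 35.8% and 18.0%. Without cells of high doublet score 0.510% of mural cells held *Gjc3* and *Gja4*, against 0.630%.

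With a replicate block, the member calls numbered 19, 11, 31 and 20 in these families. The replicate numbers mark libraries, and the labels name no further pairing. Clusters of 1 library shared part of their deviations, with a correlation over 0.1 in 54 of 210 pairs of clusters, which the main fit does not model. The block raised the calls over all genes in every comparison, from 246 to 385 in SGC cluster 5 and from 3697 to 3925 between the SGC states. Leaving out either replicate leaves 1 profile a cluster and no test. All 19, 11, 30 and 21 called differences kept their direction in each replicate alone. Depth limits the rare genes, and the small mural clusters give wider errors than the SGC states.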
